A study of Mus musculus with 20 samples.

Results

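The vitamin D genes of the kidney were taken as the rows of the deposited count table with the symbols Cyp24a1, Cyp27b1, Vdr, Rxra and S100g. All 5 were found, among 55822 genes in the table. They were followed in kidney tissue of 8-week-old male mice of the inbred strain C57BL/6J, for which the labels name no engineered allele. Control mice received phosphate-buffered saline (PBS) alone, and treated mice received puberulic acid, a tropolone made by some Penicillium moulds, at 1 mg per day. Both were dosed once daily for 6 days and killed on day 7, and the labels name both oral and intraperitoneal dosing without giving the route of each animal. The series has 20 samples in 4 groups of 5, and the other 10 samples received a normal or a toxic lot of the supplement Choleste-Help at 1000 mg per day. The 10 other columns of the table fall by name into 2 sets of 5, but the names do not say which set is which lot, and they were not used here, so the comparison is of 5 control with 5 puberulic acid animals.

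The kidney is where vitamin D becomes a hormone. In mitochondria of the proximal tubule the enzyme Cyp27b1 turns the circulating precursor calcidiol into the active hormone calcitriol, and Cyp24a1 degrades both. Calcitriol binds the nuclear receptor Vdr, which pairs with the retinoid X receptor Rxra on DNA. The pair is known to raise Cyp24a1, and in the distal nephron and intestine genes of calcium transport such as S100g, a small calcium-binding protein of the calbindin type. Parathyroid hormone raises Cyp27b1 and lowers Cyp24a1, while the bone hormone FGF23, acting with klotho, does the reverse.

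The 10 libraries held 18409877 to 24705587 estimated counts. Values are given in CPM, counts relative to the size of the library, after scaling by trimmed mean of M-values (TMM), and 3 counts correspond to 0.0964 to 0.195 CPM. Puberulic acid replicate 1 stood apart from the other 4 treated animals on the side of the controls for several genes of the pathway, and control replicate 5 stood apart for others, so values without these animals are given where they matter. Some cell type markers set puberulic acid replicate 1 apart too. The loop of Henle gene Slc12a1 was at 779 CPM in it, against 140 to 324 CPM in the other 4. The injured tubule gene Lcn2 was at 108 CPM against 265 to 840 CPM, while the distal tubule gene Trpm6 lay within their range. The library of puberulic acid replicate 3 stood apart in markers of other tissues, with 480 counts of the adipocyte gene Adipoq against 0 to 14 in the other 9 libraries and 113 counts of the adrenal gene Cyp11b1 against 0 to 2. Without it the log2 fold changes were -1.27 for Vdr, -1.05 for Rxra, -1.92 for S100g, -0.21 for Cyp24a1 and -0.05 for Cyp27b1, and none of the 5 genes changed its call. Kidney identity was borne out by the markers: summed over 8 proximal tubule genes, the level was 8553 to 13024 CPM in controls and 636 to 1524 CPM after treatment, and all 8 genes were lower. In whole tissue, fewer cells of a type and less RNA per cell cannot be told apart. The share of counts from mitochondrially encoded genes was 18.8% to 22.2% in controls and 10.5% to 13.8% after treatment. In a fit without these and the 10 most abundant genes, the log2 fold changes were -1.30 for Vdr, -1.07 for Rxra and -1.96 for S100g. No call of the 5 genes changed in that fit, and any other part of this share in the results was not tested. The labels state no separate housing, litter or batch for the animals.

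The receptor pair and the calcium-binding gene were lower after puberulic acid, and the 2 enzymes were not called. S100g was 3.89-fold lower, Vdr 2.47-fold lower and Rxra 2.10-fold lower, and in each of these 3 genes all 5 treated animals lay below the lowest control. Cyp24a1 and Cyp27b1 had treated means close to the control means, with ranges that overlapped. The kidney's transcripts changed widely under this treatment. Of 16266 genes tested, 65.3% were called with an adjusted p-value under 0.05 by edgeR's quasi-likelihood test, 31.1% lower and 34.2% higher, and for 50.1% the CPM values of treated and control animals were fully separate. Against that background, 3 of 5 vitamin D genes called, all 3 lower and without overlap, is a description of these genes and not a sign that they stand apart.

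**Figure D1:**
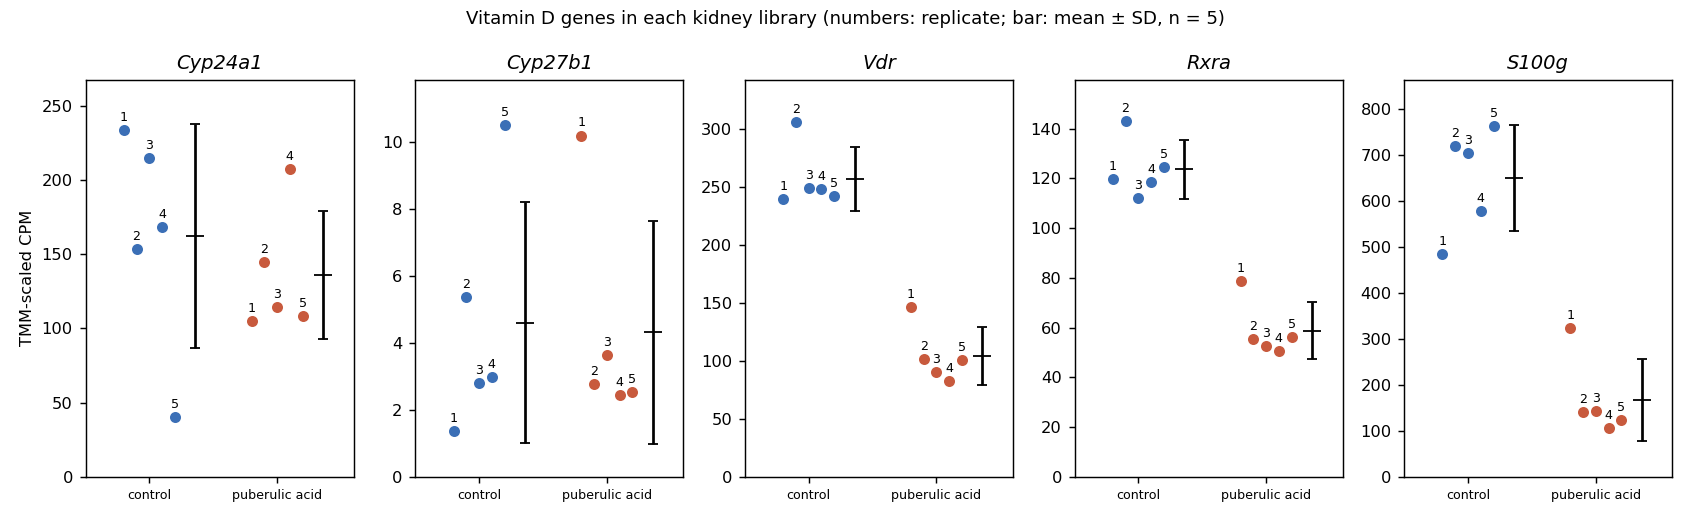
TMM-scaled CPM of Cyp24a1, Cyp27b1, Vdr, Rxra and S100g (linear axes from 0) in each of 5 control and 5 puberulic acid libraries, with replicate numbers and the mean ± SD of each group. The treated points of Vdr, Rxra and S100g lie below all controls, while the groups overlap for the 2 enzymes. For Cyp27b1, control replicate 5 and puberulic acid replicate 1 are the highest points of their groups.

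The activating enzyme Cyp27b1 (ENSMUSG00000006724) was the least abundant in counts, with 24 to 275 counts per library. Its levels in control replicates 1 to 5 were 1.37, 5.38, 2.80, 2.99 and 10.5 CPM. The treated animals, replicates 1 to 5, had 10.2, 2.77, 3.64, 2.44 and 2.54 CPM. Each group thus held 1 animal near 10 CPM and 4 animals at lower levels, and every treated value lay within the control range. The means were 4.61 ± 3.60 CPM in controls and 4.32 ± 3.32 CPM after treatment (SD, n = 5), with a log2 change of -0.09 ± 0.55 (SE, edgeR adjusted p = 0.895). The sign depended on single animals. The log2 fold change was 0.45 (adjusted p = 0.459) without control replicate 5 and -0.72 (adjusted p = 0.203) without puberulic acid replicate 1. It was -0.15 (adjusted p = 0.718) when both were left out.

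The degrading enzyme Cyp24a1 (ENSMUSG00000038567) ran the other way in those animals. Its levels in control replicates 1 to 5 were 234, 154, 215, 168 and 40.1 CPM. The treated animals, again 1 to 5, had 105, 145, 114, 207 and 108 CPM. Control replicate 5, the control with the most Cyp27b1, had the least Cyp24a1, and puberulic acid replicate 1 had the most Cyp27b1 and the least Cyp24a1 of its group. The group means were 162 ± 75.7 and 136 ± 43.0 CPM (SD, n = 5), with a log2 change of -0.26 ± 0.37 (SE, edgeR adjusted p = 0.561). Without control replicate 5 it was -0.52 ± 0.21 (SE, adjusted p = 0.0523), and without puberulic acid replicate 1 it was -0.20 (adjusted p = 0.676). An SE is not a limit, and for both enzymes the data allow differences larger than these errors in either direction. An annotated gene on the opposite strand, Pfdn4, overlaps Cyp24a1, and whether counting used strand is not given in the sources used here. Pfdn4 stood at 14.1 to 21.5 CPM in controls and 14.8 to 23.9 CPM after treatment.

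The enzymes varied more between animals than most genes. The coefficient of variation of Cyp27b1 was 78.1% in controls and 77.0% with puberulic acid, larger than that of 94.3% and 98.6% of the genes tested. For Cyp24a1 it was 46.7% and 31.6%, larger than that of 86.7% and 78.4% of genes. Vdr and Rxra varied little in controls, at 10.7% and 9.51%, larger than that of 26.8% and 21.5% of genes. With puberulic acid they were at 23.9% and 19.5%, larger than that of 66.5% and 57.2% of genes. The spread of S100g went from 17.7% in controls to 52.9% with puberulic acid, where replicate 1 was far above the other 4 animals.

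Within each library the ratio of Cyp24a1 to Cyp27b1 does not depend on how libraries are scaled. In control replicates 1 to 5 the estimated counts of Cyp24a1 were 167, 28.4, 76.0, 55.8 and 3.81 times those of Cyp27b1. In puberulic acid replicates 1 to 5 the ratios were 10.3, 51.9, 31.2, 84.1 and 42.3. The ratio thus spanned 43.9-fold among controls and 8.19-fold among treated animals, and the treated range lay inside the control range. On the log2 scale the mean was 5.24 ± 2.07 in controls and 5.16 ± 1.13 with puberulic acid (SD, n = 5), a difference of -0.07.

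**Figure D2:**
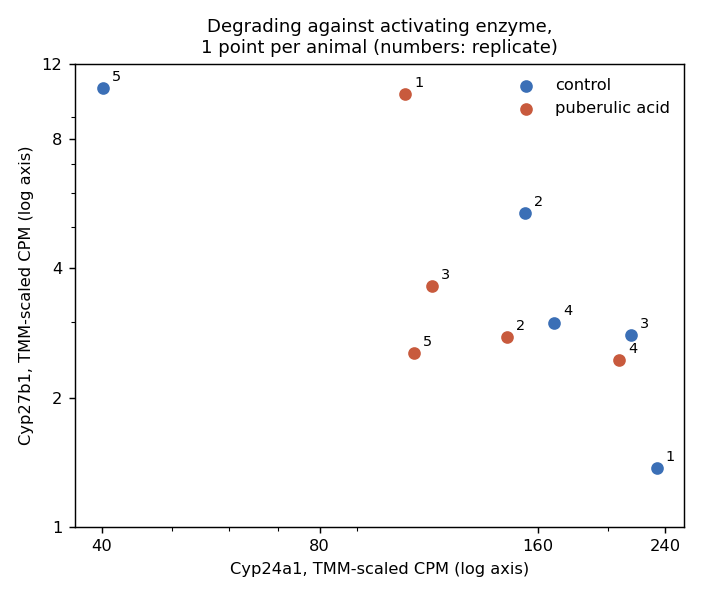
Cyp27b1 against Cyp24a1 in TMM-scaled CPM, both on log axes, 1 point for each of 10 animals with its replicate number. Animals with more Cyp24a1 tend to have less Cyp27b1, from control replicate 5 at the upper left (40.1 and 10.5 CPM) to control replicate 1 at the lower right (234 and 1.37 CPM).

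Over the 10 animals, log2(CPM + 0.5) of the 2 enzymes had a Pearson correlation of -0.77 (permutation p = 0.0106, two-sided) and a Spearman correlation of -0.68 (permutation p = 0.0344, two-sided). This was the 1 relation tested, and it was looked at after the values of these animals had been seen. Taken as deviations from the group means the Pearson correlation was -0.78. The 2 animals farthest from the median Cyp24a1 were control replicates 5 and 1, and without them, over a narrower range of Cyp24a1, it was -0.50 for 8 animals (permutation p = 0.223). The test result thus rested on those 2 animals, while the sign stayed negative. Within the groups of 5 animals the Pearson correlation was -0.90 in controls and -0.54 with puberulic acid, and neither was tested.

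The receptor Vdr (ENSMUSG00000022479) stood at 240, 306, 249, 248 and 243 CPM in control replicates 1 to 5. In puberulic acid replicates 1 to 5 it stood at 147, 101, 90.4, 82.3 and 100 CPM. The lowest control was well above the highest treated animal, which was replicate 1. The mean went from 257 ± 27.5 to 104 ± 24.9 CPM (SD, n = 5), a log2 change of -1.30 ± 0.15 (SE, edgeR adjusted p = 1.04e-05). Without puberulic acid replicate 1 it was -1.48.

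Its partner Rxra (ENSMUSG00000015846) fell in parallel. It was at 120, 143, 112, 119 and 124 CPM in control replicates 1 to 5, and at 78.8, 55.2, 52.6, 50.7 and 56.3 CPM in puberulic acid replicates 1 to 5. Again replicate 1 was the treated animal nearest to the controls, and the groups did not overlap. The means were 124 ± 11.8 and 58.7 ± 11.4 CPM (SD, n = 5), and the log2 fold change was -1.07 ± 0.12 (SE, adjusted p = 1.30e-05). Without puberulic acid replicate 1 it was -1.22.

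Between the groups the fall was somewhat steeper for Vdr than for Rxra. How often the ratio of a pair of genes separates these groups was not tested. The estimated counts of Rxra were 0.449 to 0.513 of those of Vdr in the 5 control libraries and 0.538 to 0.616 in the 5 puberulic acid libraries, without overlap. The mean log2 ratio went from -1.06 ± 0.08 to -0.82 ± 0.08 (SD, n = 5). These ratios are of counts, not per transcript length, so they do not say which receptor has more transcripts.

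The size of the receptor change depended on scaling, though not its direction. With libraries scaled to the total counts of the genes tested, the median gene moved from a log2 fold change of 0.05 to 0.56, and 78.4% of all calls were higher in place of 52.4%. On that scale Vdr was at -0.79 (adjusted p = 3.81e-04) and Rxra at -0.56 (adjusted p = 0.00133). The CPM of Rxra on that scale was 94.9 to 119 in controls and 59.1 to 92.5 in treated animals, still without overlap. The same scaling gave Cyp24a1 a log2 fold change of 0.25 and Cyp27b1 one of 0.41, with adjusted p-values of 0.555 and 0.513, so neither enzyme has a direction that holds across scalings.

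The other genes of the receptor complex were called in both directions. Of 14 genes in a list of receptors and their cofactors, 13 were tested, and besides Vdr and Rxra 5 of 11 were called higher and 3 lower, near the 34.2% and 31.1% of all genes. Rxrb, a second retinoid X receptor, had a log2 fold change of -0.27 (adjusted p = 0.0284), which turned to 0.24 with total-count scaling (adjusted p = 0.0467). Rxrg had 1 to 15 counts per library and did not pass the low-count filter. Coactivator genes Ep300, Crebbp and Med1 were higher, with log2 fold changes of 0.80 ± 0.15, 0.61 ± 0.12 and 0.59 ± 0.10 (SE). With total-count scaling Ep300 and Crebbp were at 1.31 and 1.12, larger in size than the -0.79 of Vdr and the -0.56 of Rxra on that scale. The corepressor gene Ncor1 was at -0.36 (adjusted p = 0.0351), which turned to 0.15 with total-count scaling. Ncoa3 was called higher at 0.31 (adjusted p = 0.0435), a call lost in 9 of the 11 fits that left animals out.

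The stretches before the transcription starts of the genes show where the receptor pair could be looked for. RefSeq windows (GRCm38.p6, not GRCm39, which the submitters' processing notes name) were found for 4 of the 5 genes. The receptor pair prefers the element called DR3, a direct repeat of a half-site with 3 free bases between the copies, and both strands were searched for it. The 250 bases upstream are shown for Vdr (chr15:97908297-97908546, minus strand) and S100g (chrX:162964600-162964849, minus strand), which fell, and for Cyp27b1 (chr10:127047996-127048245, plus strand), which was not called. They read 5′ to 3′ on the strand of the gene, and capitals mark matches to DR3 with up to 2 mismatches on either strand.
Vdr: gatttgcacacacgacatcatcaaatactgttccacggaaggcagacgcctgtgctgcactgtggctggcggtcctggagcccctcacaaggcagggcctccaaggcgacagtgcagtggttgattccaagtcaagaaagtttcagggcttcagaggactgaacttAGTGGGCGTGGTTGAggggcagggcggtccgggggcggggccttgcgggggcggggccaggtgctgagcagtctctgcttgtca
S100g: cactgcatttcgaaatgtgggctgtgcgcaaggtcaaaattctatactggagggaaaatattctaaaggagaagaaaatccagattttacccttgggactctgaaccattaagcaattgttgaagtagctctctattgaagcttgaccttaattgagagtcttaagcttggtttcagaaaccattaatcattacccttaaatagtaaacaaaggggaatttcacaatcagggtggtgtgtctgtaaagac
Cyp27b1: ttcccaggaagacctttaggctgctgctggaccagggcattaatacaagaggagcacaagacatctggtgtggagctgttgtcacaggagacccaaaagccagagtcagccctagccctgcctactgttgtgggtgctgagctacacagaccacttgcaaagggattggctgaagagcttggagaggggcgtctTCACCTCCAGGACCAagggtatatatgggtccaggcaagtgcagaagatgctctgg
The match in Vdr, on the gene's strand and starting at 84 bases before the start, and the match in Cyp27b1, on the opposite strand at 56 bases before, each had 2 mismatches. S100g and both windows of Rxra held none. Of 32851 promoter windows of the same length, 48.3% held a match at this tolerance, 5.98% with up to 1 mismatch and 0.256% with none, so that 2 of the 5 windows of these genes is near the general share. A match is letters only, not a site shown to be bound.

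S100g (ENSMUSG00000040808) had the largest fall of the 5 genes. Control replicates 1 to 5 were at 485, 720, 703, 577 and 764 CPM. Puberulic acid replicates 1 to 5 were at 323, 141, 142, 106 and 123 CPM. Replicate 1 lay about midway between the other treated animals and the lowest control, and the groups did not overlap. The mean went from 650 ± 115 to 167 ± 88.3 CPM (SD, n = 5), a log2 change of -1.96 ± 0.28 (SE, edgeR adjusted p = 7.30e-05). Without puberulic acid replicate 1 it was -2.37. With total-count scaling it was -1.46 (adjusted p = 4.56e-04), and replicate 1 at 379 CPM stayed under the lowest control at 401 CPM. Ctps2, on the opposite strand, overlaps S100g in the annotation and was also lower, from 32.7 to 41.5 CPM in controls to 17.7 to 26.3 CPM with puberulic acid.

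The larger calbindin, Calb1, which buffers calcium in the distal convoluted and connecting tubule, moved with S100g. It was at 360 to 591 CPM in controls, and at 295, 65.6, 91.9, 54.0 and 93.3 CPM in puberulic acid replicates 1 to 5. Its log2 fold change was -1.93 ± 0.42 (SE, adjusted p = 0.00146), and -2.60 without replicate 1. The log2 ratio of S100g to Calb1 within libraries was 0.52 ± 0.20 in controls and 0.65 ± 0.40 with puberulic acid (SD, n = 5), with overlap. With total-count scaling the Calb1 ranges of the groups overlapped, since replicate 1 reached 346 CPM and the lowest control 298 CPM.

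**Figure D3:**
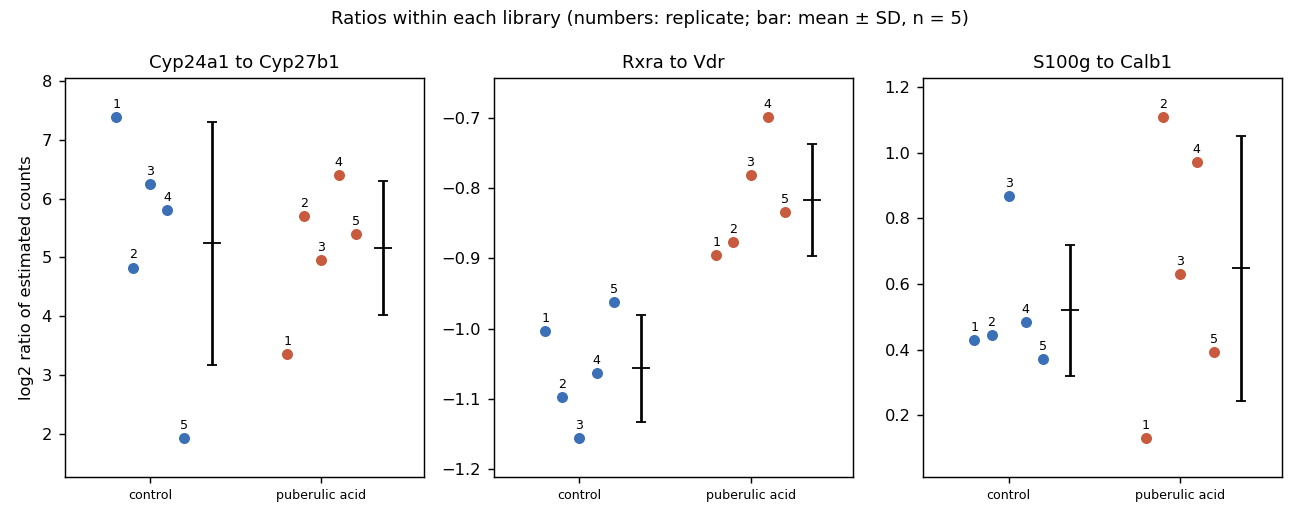
Log2 ratios of estimated counts within each of 10 libraries for Cyp24a1 to Cyp27b1, Rxra to Vdr and S100g to Calb1, with replicate numbers and the mean ± SD of each group (n = 5). The Rxra to Vdr ratio is higher in all 5 treated libraries than in any control, while the other 2 ratios overlap between groups. The 3 vertical axes have different ranges.

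The channels, pumps and exchanger of calcium transport were called higher or not called. In the list of vitamin D targets and renal calcium transport, all 11 genes were tested, 3 were called higher, 4 lower and 4 neither, near the 34.2% higher and 31.1% lower of all genes, with a median log2 fold change of -0.65 against 0.05. The lower genes were Vdr, S100g, Calb1 and Klk1, a kallikrein of the connecting tubule, at -1.53 ± 0.22 (SE). Trpv6, an apical calcium channel, was at 1.03 to 3.31 CPM in controls and 4.53 to 7.20 CPM after treatment, all treated animals being higher, with a log2 change of 1.73 ± 0.32 (SE, edgeR adjusted p = 4.66e-04). The calcium pump gene Atp2b1 was higher by 0.63 ± 0.14 on the log2 scale (SE, adjusted p = 0.00148). The main distal channel Trpv5 was at 0.41 ± 0.17 (SE, adjusted p = 0.0470), a call lost in 8 of the 11 fits that left animals out and in 4 of 9 others, and the adjusted p-value reached 0.113. Slc8a1, the sodium-calcium exchanger, was at -0.65 (adjusted p = 0.116), and at -1.11 (adjusted p = 0.00142) without puberulic acid replicate 1. Ren1, the renin gene that calcitriol is known to restrain, was at -1.53 (adjusted p = 0.0501), with control replicate 5 at 236 CPM and the other controls at 51.3 to 88.0 CPM. Without that control it was -0.93 (adjusted p = 0.178), over all fits that left animals out the adjusted p-value ran from 0.0250 to 0.178, and 4 of 9 other alternatives called it, the lowest at 0.0123 with the replicate block.

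The electron donors of the hydroxylases were lower, while Cyp24a1 and Cyp27b1 were not called. Of 8 genes listed as vitamin D enzymes and their electron donors, 7 were tested, Sts having no matched row, 3 were called lower and 4 neither, Cyp24a1 and Cyp27b1 among the latter, where 31.1% of all genes were lower. Fdx1, the ferredoxin that feeds electrons to both mitochondrial hydroxylases, went from 94.1 ± 4.16 to 27.8 ± 5.04 CPM (SD, n = 5), a log2 change of -1.76 ± 0.11 (SE, edgeR adjusted p = 1.37e-07). Its reductase Fdxr was at -1.16 ± 0.13 (SE). Cyp27a1, a sterol hydroxylase that can also make calcidiol, was at -1.87 ± 0.11 (SE). Cyp2r1, the main calcidiol-forming enzyme of the liver, was below 1 CPM on average in both groups and was not called (log2 fold change -0.28, adjusted p = 0.522). Dhcr7, which takes the precursor of vitamin D into cholesterol synthesis, was at -0.27 (adjusted p = 0.102).

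Genes for the uptake of filtered vitamin D with its carrier were lower in 5 of 6 cases and higher in 1, where 31.1% of all genes tested were lower and 34.2% higher. Megalin (Lrp2), the endocytic receptor that recovers the carrier, was at 1204 to 1560 CPM in controls and 96.2 to 242 CPM after treatment, a log2 fold change of -3.20 ± 0.24 (SE). Its partner cubilin (Cubn) was at -2.99 ± 0.18, the cubilin anchor Amn at -1.67 ± 0.18, the chaperone Lrpap1 at -2.26 ± 0.11 and the adaptor Dab2 at -0.66 ± 0.11 (SE). The call of Dab2 was lost with total-count scaling (-0.15, adjusted p = 0.203). The exception was the carrier itself. Gc, the vitamin D binding protein, which is made chiefly by liver, was at 4.91, 5.33, 13.7, 11.2 and 61.0 CPM in control replicates 1 to 5. With puberulic acid replicates 1 to 5 were at 192, 213, 175, 192 and 191 CPM, all above the highest control. The log2 change was 3.33 ± 0.62 (SE, adjusted p = 5.01e-04), and 4.45 without control replicate 5, the control that also had the least Cyp24a1.

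**Figure D4:**
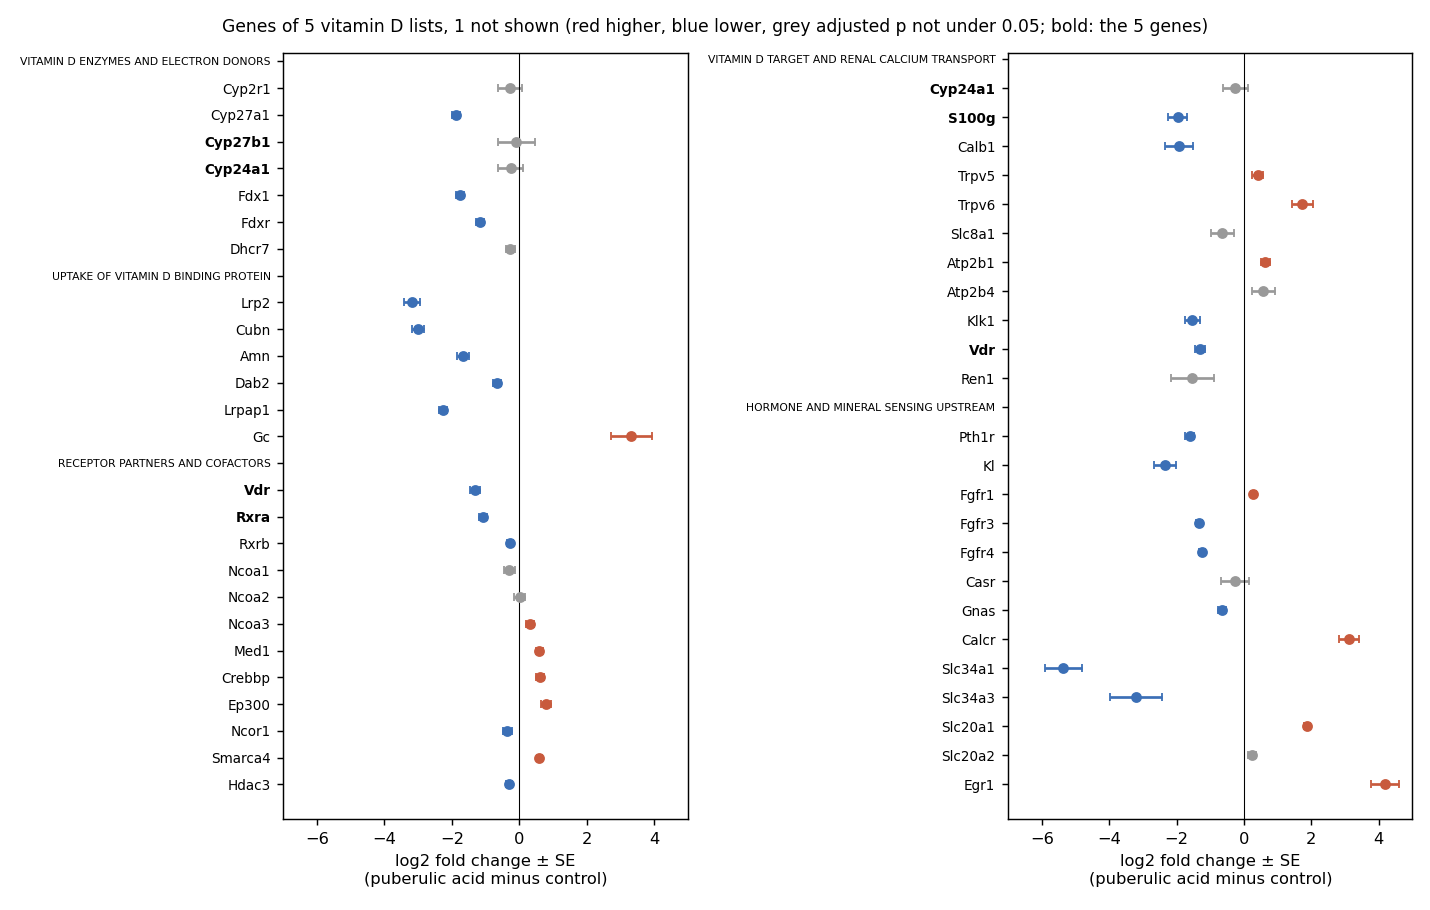
Log2 fold change ± SE (puberulic acid minus control, linear axis) of tested genes of 5 vitamin D lists, grouped by role, with 1 gene not shown. Blue genes were called lower, red higher and grey neither, and the 5 vitamin D genes are in bold, with Vdr and Cyp24a1 shown in 2 lists. The 2 enzymes sit near 0 beside lower uptake and electron donor genes and a higher Gc.

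The receptor of parathyroid hormone and the coreceptor of FGF23, which set Cyp27b1 and Cyp24a1, were lower. The list of hormone and mineral sensing genes had 13 members, all tested, with 4 higher and 7 lower, beside 34.2% and 31.1% over all genes. The parathyroid hormone receptor Pth1r went from 675 ± 98.6 to 221 ± 36.5 CPM (SD, n = 5), which is a log2 change of -1.61 ± 0.13 (SE). Klotho (Kl), the coreceptor of FGF23, was at 544 to 788 CPM in controls and at 259, 90.4, 99.3, 65.4 and 128 CPM in puberulic acid replicates 1 to 5, with a log2 change of -2.35 ± 0.32 (SE, edgeR adjusted p = 4.40e-05). Of the FGF receptors, Fgfr3 and Fgfr4 were at -1.34 ± 0.09 and -1.25 ± 0.09 and Fgfr1 at 0.28 ± 0.08 (SE). The calcium-sensing receptor Casr was at -0.26 (adjusted p = 0.601), and at -0.95 (adjusted p = 0.00282) without puberulic acid replicate 1, which had 40.3 CPM against 6.15 to 12.7 CPM in the other 4.

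Phosphate, the other mineral under this control, was represented by its transporters. Slc34a1, the main apical phosphate transporter of the proximal tubule, was at 3273 to 5612 CPM in controls and 51.2 to 319 CPM after puberulic acid, with a log2 fold change of -5.36 ± 0.55 (SE), and of -6.20 without puberulic acid replicate 1. Slc34a3, the lesser of the proximal tubule's apical phosphate transporters, was at -3.21 ± 0.78 (SE, adjusted p = 0.00328), with 14.7 to 87.6 CPM in controls and 0.974 to 17.6 CPM after treatment. Puberulic acid replicate 1 had the 17.6 CPM, the other treated animals at most 2.99 CPM, and without it the log2 fold change was -4.75. Slc20a1, a widely expressed phosphate transporter, was higher in all 5 treated animals, at 1.86 ± 0.09 (SE). Calcr, the calcitonin receptor, was at 0.286 ± 0.128 CPM in controls and 2.52 ± 0.366 CPM after treatment (SD, n = 5). The early response factor Egr1 was higher by 4.19 ± 0.42 on the log2 scale (SE).

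Over the 5 lists, which hold 50 genes when each is counted once, 48 were tested, 13 were called higher and 23 lower, with a median log2 fold change of -0.30 against 0.05 for all genes, of which 34.2% were higher and 31.1% lower. With total-count scaling the split of the listed genes was 19 higher and 18 lower. Without the 5 vitamin D genes, 20 of 43 were lower and 13 higher. Marker genes of the cells that carry these transcripts moved as well, and the marker lists share Lrp2, Slc34a1, Calb1, Slc8a1, Trpv5 and Klk1 with the lists above. The proximal tubule list had a median log2 fold change of -3.27, and the distal convoluted and connecting tubule list, summed, was at 3036 to 4114 CPM in controls and 874 to 2434 CPM after treatment, with 4 of 7 genes lower and 1 higher. Much of that sum was the shared gene Klk1, at 2515 CPM on average in controls and 872 CPM after treatment. Of the distal genes not shared, Slc12a3 and Pvalb were lower and Trpm6 was not called. The collecting duct list was at 465 to 677 CPM in controls and 203 to 331 CPM after treatment, with 5 of 7 lower. The loop of Henle list had 2 of 4 lower, but its sum was not lower, at 2850 to 5145 CPM in controls and 2999 to 5710 CPM after treatment. Macrophages can also express Cyp27b1, and of 8 macrophage and monocyte genes 6 were higher, their summed level being 88.2 to 198 CPM in controls and 192 to 648 CPM after treatment. All 5 injured tubule genes and 3 of 4 fibroblast genes were higher. Of 4 tested lymphocyte genes 1 was higher, Cd79a and Ms4a1 being under the filter, and of the 4 endothelial and the 4 podocyte genes 1 each was lower. Of the 5 adipocyte and adrenal genes only Star passed the filter, and it was carried by puberulic acid replicate 3, at 30.0 CPM against 1.34 to 3.12 CPM in the other treated animals and 0.342 to 2.01 CPM in controls. Plin1 and Cyp11a1, under the filter, had 398 and 99 counts in that library, against at most 10 and 4 in any other. The part of these cell type differences in the vitamin D results was not tested.

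The genes whose course over the 10 libraries was most like each vitamin D gene were found by the root mean square difference of log2(CPM + 0.5), each gene centred on its control mean. For Vdr these were Lrrc56, Agpat3, an acyltransferase of phospholipid synthesis, and Pmpcb, a subunit of the mitochondrial processing peptidase, at 0.07, 0.09 and 0.10. For Rxra they were Slc16a12, Stard5 and the copper importer Slc31a1, at 0.06, 0.08 and 0.09. For S100g they were Klhl3, a ubiquitin ligase adaptor of the distal convoluted tubule, the proximal tubule amino acid transporter Slc7a9 and the sulfite oxidase Suox, at 0.16, 0.19 and 0.20. For the enzymes no gene came as near. This distance also grows with the spread of a gene between animals, so it does not show that the enzymes follow a course of their own. The nearest to Cyp24a1 were Hsd11b1, a glucocorticoid-activating enzyme, Axin2 and Gsap at 0.37, 0.38 and 0.42, and the nearest to Cyp27b1 were Epb41l3, Zscan20 and Cpn1 at 0.41, 0.42 and 0.43.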

How the data were processed

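Poly(A) RNA of kidney tissue was sequenced from directional libraries per the labels' protocols. The authors deposited estimated counts, a row per gene and a column per library. The submitters' processing notes name fastp 0.22.0, FastQC 0.12.1, MultiQC 1.28, Salmon 1.10.3, DESeq2 and the build GRCm39, without their roles, and the annotation is not given in the sources used here. The 5 genes and the lists were chosen with earlier results of these data known. Of 20 sample columns, 10 were used, and 10 whose names do not say which lot they hold were not. Identifiers were matched to symbols for 51344 of 55822 genes (99.29% of counts).

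Estimated counts were rounded, genes kept by filterByExpr, libraries scaled by TMM and groups compared by the quasi-likelihood test without the robust option (edgeR 4.0.16, limma 3.58.1, R 4.3.3). The script was tested on simulated data in which few genes changed, up and down alike. That does not test the scaling where most genes are called. Benjamini-Hochberg adjustment covered all 16266 genes tested, with a threshold of 0.05. The SE is the absolute log2 fold change over the root of F. The quasi-likelihood p-values set the difference between groups against the spread between these samples, and the floor of 3 counts covers counting error only. Ratios within libraries used counts + 0.5. The correlation used 100000 resamples. Of the listed genes 1 is counted but not reported here. Named genes are the 5, any listed gene, and the 3 most alike to each with a mean of at least 1 CPM, unnamed models and pseudogenes excepted. Promoters are RefSeq windows of 250 bases before to 50 after a start, and overlapping genes were read from GENCODE's annotation of GRCm38. Alternatives were RLE, upper-quartile and total-count scaling, no filter, 1 CPM in 5 samples, DESeq2 1.42.0, a robust fit, removal of mitochondrial and the 10 most abundant genes, a replicate block and each sample left out. Python used numpy 2.4.6, scipy 1.17.1, pandas 2.3.3 and matplotlib 3.10.9.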

Additional observations from a re-analysis of the deposited data

Results flagged for a closer look

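Each set of 5 values was searched for a highest or lowest animal set off from the next by more than 0.71 of the group's range, for the 5 vitamin D genes, the other tested genes of the 5 lists and the 3 ratios. Of 102 groups of values 16 held such an animal, where chance gives about 1 in 20 (5.1) if values are normally distributed. CPM were searched on the linear scale, and whether they meet that condition was not tested. Values of related genes are also not independent, so their flags can come together.

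Puberulic acid replicate 1 was the animal in 8 of the 16, each time as the highest of its group. It stood apart in Cyp27b1 (10.2 CPM, gap 0.846), Rxra (78.8 CPM, gap 0.799) and S100g (323 CPM, gap 0.832). The same held for Calb1 (295 CPM, gap 0.837), Fdx1 (36.5 CPM, gap 0.749), Casr (40.3 CPM, gap 0.81), Slc34a1 (319 CPM, gap 0.872) and Slc34a3 (17.6 CPM, gap 0.879).

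Control replicate 5 was the animal in 4, as the highest control in Gc (61.0 CPM, gap 0.843), Cyp27a1 (43.5 CPM, gap 0.781), Ren1 (236 CPM, gap 0.801) and Med1 (34.5 CPM, gap 0.716). Its Cyp24a1, the lowest of the controls, did not pass this limit. Control replicate 2 had the highest Vdr (306 CPM, gap 0.856). Control replicate 1 had the highest Atp2b4 (39.3 CPM, gap 0.953) and the lowest Smarca4 (56.0 CPM, gap 0.715). Control replicate 3 had the highest log2 ratio of S100g to Calb1 (0.87, gap 0.775). The causes were not tested.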

How the results depend on the processing

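Vdr, Rxra and S100g stayed lower and called in each of the 20 alternatives, and Cyp24a1 and Cyp27b1 were called in none. Total-count scaling called 9179 genes higher and 2526 lower, against 5564 and 5058, and put Cyp24a1 at 0.25 and Cyp27b1 at 0.41. The Cyp27b1 log2 fold change ran from -0.72 to 0.45 when animals were left out, and the cause was not tested. The fit without both control replicate 5 and puberulic acid replicate 1 was chosen after seeing the data. Listed genes that turned with total-count scaling were Cyp2r1 (0.23), Dhcr7 (0.25), Rxrb (0.24), Ncoa1 (0.21), Ncor1 (0.15), Hdac3 (0.21) and Casr (0.24), none of them past 0.36 in size as reported. Ncoa2, at 0.01, was at -0.00029 with RLE factors, -0.0022 with DESeq2, 0.52 with total counts (adjusted p = 0.00943, a call gained) and -0.18 to 0.10 with animals left out, and Cyp2r1 ran from -0.47 to 0.059. Same-numbered animals are not paired in the labels, and their deviations correlated by -0.174 to 0.033. With the replicate block 10325 genes were called, against 10622, and 35 listed genes in place of 36, and none of the 5 vitamin D genes changed its call (S100g -2.09, Vdr -1.33, Rxra -1.09, Cyp24a1 -0.10, Cyp27b1 -0.11). With up to 1 mismatch no match to DR3 was left in the windows found for 4 of the 5 genes. Of the 5 genes Cyp27b1 had the fewest counts, 24 to 275 per library, and of the listed genes named Cyp2r1 had 6 to 29 and Calcr 2 to 77. The part of depth in their errors was not tested.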
